A study of Mus musculus with 12 samples.

Results

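The multidrug resistance-associated proteins (Mrp, encoded by Abcc genes) were followed in mouse liver by the 5 genes Abcc2, Abcc3, Abcc4, Abcc6 and Abcc12, which were taken as every probe set that lists one of these symbols and no other. Each of the 5 had 1 such probe set (1450109_s_at for Abcc2, 1428988_at for Abcc3, 1443870_at for Abcc4, 1421212_at for Abcc6 and 1439985_at for Abcc12), so the group held 5 of the 5856 genes tested. Liver mRNA was measured on Affymetrix whole-genome mouse arrays, 1 array for each of 12 male C57BL/6 mice aged 8 weeks, untreated, with 3 mice in each of 4 genotypes. Nrf2-null mice lack the transcription factor Nrf2 (Nfe2l2) in the whole body, Keap1-KD mice have less of the Nrf2 inhibitor Keap1 throughout the body, and Keap1-HKO mice came from a cross of the knockdown animals with mice whose Cre recombinase (AlbCre) acts in hepatocytes. Wild-type mice served as the control. Nrf2-null and Keap1-KD animals had been backcrossed to C57BL/6. Values below are un-logged gcRMA intensities unless log2 is stated, and a group mean under 100, the methods' limit for an expressed probe set, is treated as background. The table holds only probe sets over that limit in at least 1 genotype. Abcc2, Abcc3 and Abcc6 passed it in every genotype and Abcc4 in both Keap1 models, but Abcc12 in Keap1-HKO mice alone. Abcc12 therefore had to be highest there. It is described by its values and left out of the counts, except in the closing section on processing. Nothing is read from a test of it. Abcc4 could enter the table only through a Keap1 model, which favours a rise there.

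Mrp proteins are ATP-driven pumps that move organic anions, among them glutathione and glucuronic acid conjugates, out of the cell. In a hepatocyte, Mrp2 (Abcc2) sits in the canalicular membrane and exports into bile, whereas Mrp3 (Abcc3), Mrp4 (Abcc4) and Mrp6 (Abcc6) sit in the sinusoidal (basolateral) membrane and export towards blood. Nrf2 binds antioxidant response elements in DNA, and Keap1 holds Nrf2 down by directing its degradation.

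Upstream sequence is shown because Abcc2 and Abcc4 differed in their response to genotype and because the antioxidant response element is the motif through which Nrf2 acts. Of the 5 genes, Abcc2, Abcc4 and Abcc12 had an entry in the RefSeq promoter table (GRCm38.p6), Abcc4 with 2 starts, and the 250 bases before each start were searched on both strands for the element's core, TGACNNNGC. Matches are in capitals. Abcc2 (chr19:43782058-43782307, plus strand) held 1 match, 98 to 90 bases before the start. Abcc4 held 1 match at each start. At chr14:118706220-118706469 (minus strand) it lay 25 to 17 bases before the start, read on the opposite strand, and at chr14:118676932-118677181 (minus strand) it lay 23 to 15 bases before the start. The Abcc12 window (chr8:86566591-86566840, minus strand) held 0 matches. The core occurred in 10.2% of all 32851 windows of this length and in 740 of the 6142 windows of the genes tested. A match describes the letters only.
Abcc2: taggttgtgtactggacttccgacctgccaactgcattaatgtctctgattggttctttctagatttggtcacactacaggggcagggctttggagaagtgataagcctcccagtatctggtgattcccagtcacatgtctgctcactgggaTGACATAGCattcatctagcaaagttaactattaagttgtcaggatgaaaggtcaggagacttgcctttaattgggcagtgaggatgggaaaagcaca
Abcc4, upstream start: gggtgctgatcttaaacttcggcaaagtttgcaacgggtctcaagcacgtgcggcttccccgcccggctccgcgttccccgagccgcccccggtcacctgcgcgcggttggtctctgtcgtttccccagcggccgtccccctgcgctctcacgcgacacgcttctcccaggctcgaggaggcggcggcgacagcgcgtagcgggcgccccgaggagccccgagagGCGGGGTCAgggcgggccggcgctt
Abcc4, downstream start: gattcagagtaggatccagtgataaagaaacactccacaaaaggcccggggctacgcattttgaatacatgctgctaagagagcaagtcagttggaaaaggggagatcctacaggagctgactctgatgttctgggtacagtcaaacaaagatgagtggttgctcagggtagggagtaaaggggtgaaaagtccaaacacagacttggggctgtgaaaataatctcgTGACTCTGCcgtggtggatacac
Abcc12: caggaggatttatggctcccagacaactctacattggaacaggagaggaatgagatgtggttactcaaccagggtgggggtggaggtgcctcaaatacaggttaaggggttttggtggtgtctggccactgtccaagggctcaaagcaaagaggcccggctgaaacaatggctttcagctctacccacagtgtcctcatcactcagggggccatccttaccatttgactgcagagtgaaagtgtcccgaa

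The targeted genes followed the genotypes. Nfe2l2 averaged 5.10 ± 0.365 in Nrf2-null mice and 477 ± 23.4 in Wild-type mice (SD, n = 3 each). Keap1 averaged 52.2 ± 7.16 in Keap1-KD mice, 10.2 ± 0.187 in Keap1-HKO mice and 233 ± 15.6 in Wild-type mice. Nqo1, a quinone reductase that is a standard Nrf2 target, averaged 12.7 ± 3.29 in Nrf2-null mice, 115 ± 36.1 in Keap1-KD mice, 1047 ± 306 in Keap1-HKO mice and 26.4 ± 3.35 in Wild-type mice. Hepatocyte markers (10 measured) had a median between 15.4 and 15.6 (log2) on all 12 arrays. Single markers moved under this median. In Keap1-HKO mice Cps1 ran from 14.2 to 14.5 and Apoa1 from 15.8 to 16.3, against 14.6 to 14.9 and 16.4 to 16.5 in Wild-type mice. Tat ran from 12.9 to 13.4 in Nrf2-null and from 12.2 to 12.6 in Wild-type mice. limma called none of the 10 in either comparison. Keap1-HKO replicate 1 correlated with the other arrays of its genotype at r between 0.798 and 0.844, and Nrf2-null replicate 1 at 0.915 to 0.923, against at least 0.970 for pairs that hold neither. Transcripts of other tissues were present on 3 arrays. The median log2 value of 11 pancreas acinar markers was 14.3 in replicate 2 and 11.2 in replicate 3 of the Keap1-HKO mice and at most 2.38 elsewhere. That of 9 skeletal muscle markers was 10.9 and 9.50 in those mice, 11.0 in replicate 2 of the Wild-type mice and at most 2.93 elsewhere. In whole-liver RNA, fewer cells of a type and less RNA per cell cannot be told apart.

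**Figure D1:**
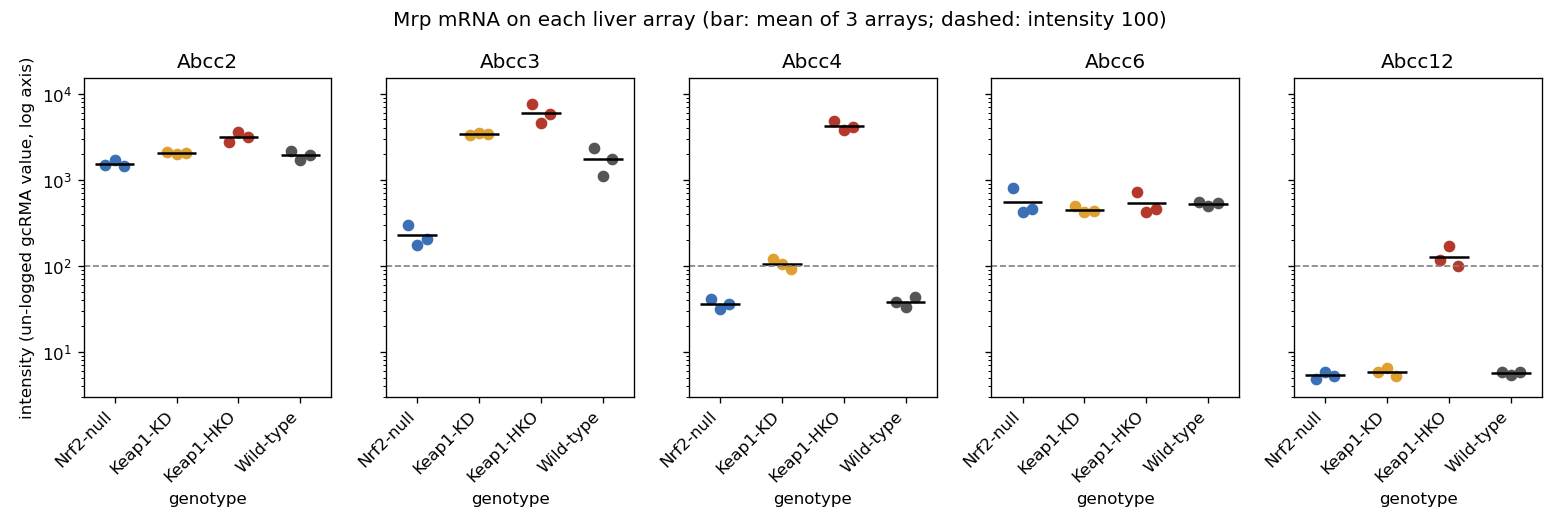
Intensity (log axis) of the 5 Mrp genes on each of the 12 liver arrays, by genotype. Points are arrays, bars the mean of 3 arrays and the dashed line an intensity of 100. Abcc4 averaged 4219 in Keap1-HKO mice and 38.4 in Wild-type mice, while Abcc6 lay between 418 and 795 on every array.

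Abcc2, the canalicular exporter of bilirubin glucuronides and glutathione conjugates, was expressed in every genotype and rose in Keap1-HKO mice, with a smaller estimate than Abcc3 and Abcc4. It read 1468, 1677 and 1455 on the Nrf2-null arrays, 2102, 2011 and 2050 on the Keap1-KD arrays, 2763, 3580 and 3127 on the Keap1-HKO arrays, and 2148, 1675 and 1953 on the Wild-type arrays. The Keap1-HKO arrays were above all others, and the Nrf2-null and Keap1-KD arrays each overlapped the Wild-type range. Against the Wild-type mean, Abcc2 was 64.0% ± 12.3 (SEM, n = 3) higher in Keap1-HKO mice, or 0.71 on the log2 scale (SE 0.14, limma adjusted p = 0.0198). In Nrf2-null mice the mean differed by -20.4% ± 3.74 from that of Wild-type mice, which did not pass (limma adjusted p = 0.687). It passed with array quality weights (log2 fold change -0.39, limma adjusted p = 0.00405) and with Duncan's test on log2 values. In Keap1-KD mice the log2 fold change was 0.10 with a 95% interval of -0.21 to 0.41. The Keap1-HKO call ended when Keap1-HKO replicate 2 (adjusted p = 0.0516) or 3 (0.0554) or Wild-type replicate 2 (0.0965) or 3 (0.0783) was left out. Without the 3 arrays that carried pancreas or muscle transcripts, which leaves only replicate 1 of Keap1-HKO mice, the log2 fold change was 0.43 and the call did not hold.

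Abcc3, the sinusoidal exporter of glucuronides, was called lower without Nrf2, and its mRNA was higher in both Keap1 models. Abcc2 and Abcc6, also above background in Wild-type mice, were not called lower, except Abcc2 with array quality weights or Duncan's test on log2 values. Abcc4 and Abcc12 lay in background in both genotypes, where a fall could not be seen. Abcc3 read 300.2, 172 and 206 on the Nrf2-null arrays, 3292, 3512 and 3378 on the Keap1-KD arrays, 7651, 4571 and 5814 on the Keap1-HKO arrays, and 2350, 1100 and 1723 on the Wild-type arrays. No 2 genotypes overlapped, and the means ascended through Nrf2-null, then Wild-type, then Keap1-KD and then Keap1-HKO livers. All 3 Nrf2-null arrays were below all 3 Wild-type arrays for Abcc3 and not for Abcc2 or Abcc6 (8.76% of all genes). Without Nrf2, Abcc3 fell by 86.9% ± 2.22 (SEM, n = 3) relative to Wild-type mice, or -2.90 on the log2 scale (SE 0.30, limma adjusted p = 0.00147), and 10 of the 5856 genes had a lower estimate. In Keap1-HKO mice it was 249% ± 51.9 higher than in Wild-type mice, a log2 fold change of 1.84 (SE 0.30, limma adjusted p = 0.00743). In Keap1-KD mice it was 96.8% ± 3.71 above Wild-type mice with no overlap of arrays. The log2 fold change of 1.04 (95% interval 0.38 to 1.71) did not pass (limma adjusted p = 1). When each pair of genotypes was fitted on its own arrays, the adjusted p was 0.0531 for Nrf2-null and 0.0943 for Keap1-HKO mice. With array quality weights the Keap1-KD value passed (0.00759).

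Abcc4, a sinusoidal exporter of cyclic nucleotides and conjugated bile acids, lay in background in Wild-type livers and was strongly expressed in Keap1-HKO livers. It read 41.3, 31.2 and 36.4 on the Nrf2-null arrays, 119, 106 and 91.0 on the Keap1-KD arrays, 4789, 3771 and 4097 on the Keap1-HKO arrays, and 38.5, 33.0 and 43.7 on the Wild-type arrays. Nrf2-null and Wild-type livers both lay in the background range and overlapped, so that no fold is given between them and a further fall in Nrf2-null mice was not detectable. Keap1-HKO mice averaged 4219 ± 520 and Wild-type mice 38.4 ± 5.37 (SD, n = 3 each), so that with the Wild-type level set to 100 Abcc4 mRNA was at least 42.2-fold higher. The log2 fold change of the measured values was 6.78 (SE 0.17, limma adjusted p = 4.48e-09). This call held in all 29 alternatives, with estimates of 5.39 (values under 100 set to 100) to 7.34. Keap1-HKO replicate 1, on which pancreas and muscle markers were near background, had the highest Abcc4 value of the 12 arrays.

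In Keap1-KD mice Abcc4 averaged 105 ± 14.2, at least 1.05-fold above Wild-type mice, with a log2 fold change of 1.45 (SE 0.17, limma adjusted p = 0.0108). All 3 Keap1-KD arrays were above all 3 Wild-type arrays, as for Abcc3 and for 7.02% of all genes, and 2 of the 3 reached 100. The call ended with values under 100 set to 100 (log2 fold change 0.11, adjusted p = 1). It also ended, at a log2 fold change of 1.92, after a second quantile normalization (adjusted p = 0.224), and, at 1.35 to 1.46, on leaving out Keap1-KD replicate 1 (0.0886) or 2 (0.0918) or Wild-type replicate 1 (0.0872) or 2 (0.0851).

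Abcc6, a sinusoidal transporter whose loss in humans causes pseudoxanthoma elasticum, was not called in any comparison. It read 795, 425 and 454 on the Nrf2-null arrays, 500, 418 and 429 on the Keap1-KD arrays, 718, 423 and 459 on the Keap1-HKO arrays, and 553, 495 and 531 on the Wild-type arrays. Its highest values were on Nrf2-null replicate 1 and Keap1-HKO replicate 1, the arrays with the lowest correlation within their genotypes. Replicate 1 was also the highest array in Keap1-KD (500) and Wild-type mice (553), whose arrays correlated closely. The part of the divergent arrays or of the replicate number in these values was not tested. The log2 differences from Wild-type mice had 95% intervals of -0.55 to 0.60 in Nrf2-null mice, -0.81 to 0.34 in Keap1-KD mice and -0.59 to 0.55 in Keap1-HKO mice, which leave room for changes of up to about the size seen for Abcc2.

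Abcc12 (Mrp9), whose substrates are little known, was above background only in Keap1-HKO livers. It read 115, 169 and 98.9 on the Keap1-HKO arrays, against 4.89 to 6.59 on the 9 arrays of the other genotypes. Keap1-HKO mice averaged 128 ± 36.7 and Wild-type mice 5.71 ± 0.257 (SD, n = 3 each), which is at least 1.28-fold higher with the Wild-type level set to 100. The log2 difference of the measured values was 4.45, and 0.32 with values under 100 set to 100, since the Keap1-HKO level itself was close to the limit. The gene was dropped by a filter at 200. Keap1-HKO replicate 2, which carried the most pancreas transcript, had the highest Abcc12 value, and replicate 1, with almost none, was above replicate 3.

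Counted over the 4 genes other than Abcc12, 1 fell and 0 rose in Nrf2-null mice, where 0.359% of the genes tested were called lower and 0.0512% higher. Abcc4, in background in both genotypes, could not be seen to fall. By an unadjusted limma p under 0.05, 2 were lower, against 3.62% of all genes. In Keap1-KD mice 1 rose and 0 fell (background 0.0512% higher and 0.0171% lower), and 2 were higher by the unadjusted p, against 1.42% of all genes. In Keap1-HKO mice 3 rose and 0 fell (background 2.1% higher and 1.84% lower). Abcc4 is the gene called in Keap1-KD mice and is among these 3, and its place in the table through the Keap1 models favours a rise. The median log2 fold change of the 4 genes was -0.20 in Nrf2-null mice, 0.57 in Keap1-KD mice and 1.28 in Keap1-HKO mice, against medians of 0.02, -0.01 and -0.01 over all genes. These 3 comparisons share the Wild-type arrays. All 3 Keap1-HKO arrays lay above all 3 Wild-type arrays for 3 of the 4 genes, against 12.7% of all genes. With Keap1-HKO replicate 1 as the only array of its genotype, the log2 fold changes were 0.53 for Abcc2, 2.22 for Abcc3 and 6.97 for Abcc4. That array had the lowest correlation within its genotype, and Wild-type replicate 2, which carried muscle transcripts, was kept. Without Wild-type replicate 2 as well, the Abcc2 value was 0.43. In the overall F test over the 4 genotypes 3 of the 4 genes passed, all but Abcc6, against 4.83% of all genes. With array quality weights Abcc6 passed as well (adjusted p = 0.0495). Abcc12, which is outside this count, had an adjusted p of 0.572 in that test with values under 100 set to 100.

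**Figure D2:**
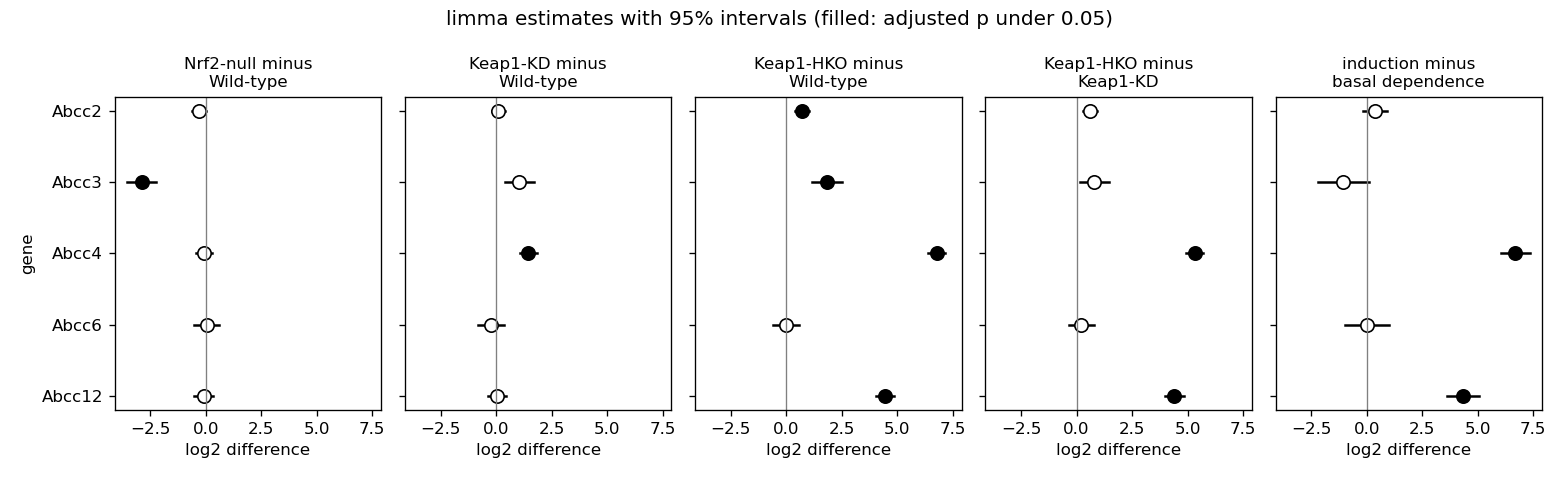
limma log2 differences with 95% intervals for the 5 Mrp genes, 1 panel a comparison, with filled points where the adjusted p was under 0.05. Abcc3 is the filled point in the Nrf2-null panel (-2.90), Abcc4 in the Keap1-KD panel (1.45), and Abcc2, Abcc3 and Abcc4 in the Keap1-HKO panel (0.71, 1.84 and 6.78). The Abcc12 point (4.45) is filled there too, but the gene is in the table only through its Keap1-HKO level.

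The step between the 2 Keap1 models was tested directly. Keap1-HKO against Keap1-KD mice, 1 of the 4 genes other than Abcc12 rose and 0 fell, where 0.786% of all genes were called higher and 0.649% lower. Abcc4 averaged 4219 ± 520 in Keap1-HKO mice and 105 ± 14.2 in Keap1-KD mice, a 40.1-fold ratio of means and a log2 difference of 5.33 (SE 0.17, limma adjusted p = 3.67e-08). Abcc12 was at least 1.28-fold higher with the Keap1-KD level set to 100. For Abcc2 and Abcc3 the arrays did not overlap, as for 9.22% of all genes, and the log2 differences of 0.61 (limma adjusted p = 0.0732) and 0.79 (0.286) did not pass. By the unadjusted p 3 of the 4 were higher, against 6.75% of all genes. Abcc2 passed with Keap1-HKO replicate 1 left out (limma adjusted p = 0.0326). With Keap1-HKO replicates 2 and 3 left out, which leaves only replicate 1 of that genotype, the Abcc3 difference was 1.17.

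A linear trend from Nrf2-null through Wild-type and Keap1-KD to Keap1-HKO was called upward for 3 of the 4 genes other than Abcc12, against 4.51% of all genes. For Abcc4, in the table only through the Keap1 models, the filter favoured an upward trend. The slope per step was 0.32 for Abcc2 (limma adjusted p = 0.00135), 1.53 for Abcc3 (4.57e-06) and 2.20 for Abcc4 (3.38e-09) on the log2 scale, and -0.04 for Abcc6 (0.868). The same call covered unlike patterns, since Abcc3 had a separate level in each genotype, while Abcc4 overlapped between Nrf2-null and Wild-type livers, both in background. For Abcc12 the measured slope was 1.37, and with values under 100 set to 100 its trend had an adjusted p of 0.341.

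Induction and basal dependence were set against each other in 1 contrast, the Keap1-HKO minus Wild-type step less the Wild-type minus Nrf2-null step. Abcc4 had 6.70 and Abcc12 4.34 on the log2 scale. Their Wild-type levels were already in background, so that no fall to Nrf2-null could be seen and the contrast had to favour the upward step, and nothing is read from their calls (background 0.222% of all genes upward and 0.137% the reverse). Only Abcc2, Abcc3 and Abcc6 had a Wild-type level from which a fall could be measured, and limma called 0 of these 3 (0 also at an unadjusted p under 0.05). Abcc3 had -1.06 (95% interval -2.21 to 0.08, limma adjusted p = 0.596), a basal step above the induction step in size that did not pass, except with array quality weights (adjusted p = 0.0451). Abcc2 had 0.39 (95% interval -0.15 to 0.93, adjusted p = 0.596).

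The sinusoidal Abcc3 and Abcc4 were compared with the canalicular Abcc2 by the log2 difference on the same array, since levels of different probe sets cannot be set side by side. Sinusoidal Abcc6 was left out, with a Keap1-HKO log2 fold change of -0.02. Canalicular Abcg5 and Abcg8 had 1.98 and 1.74 there, against a median of 0.35 over 8 other canalicular exporter genes. The differences therefore describe these gene pairs and not the 2 classes. Relative to Abcc2, Abcc3 was lower in Nrf2-null mice and higher in both Keap1 models. The difference Abcc3 minus Abcc2 lay between -3.28 and -2.29 on the Nrf2-null arrays, 0.65 and 0.80 on the Keap1-KD arrays, 0.35 and 1.47 on the Keap1-HKO arrays, and -0.61 and 0.13 on the Wild-type arrays. The shift from Wild-type was -2.58 (SE 0.36) without Nrf2, 0.94 (SE 0.22) in Keap1-KD and 1.12 (SE 0.39) in Keap1-HKO mice. Each genotype was separate from Wild-type, which gives a two-sided exact permutation p of 0.1, the smallest that 3 against 3 arrays allow. Over the 4 genotypes the exact permutation p of the F statistic was 0.000455 (0.00182 after Benjamini-Hochberg adjustment over the 8 tests of this kind).

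Relative to Abcc2, Abcc4 was higher in Keap1-HKO mice, while its shift in Keap1-KD mice depended on values below the limit. The difference Abcc4 minus Abcc2 shifted from Wild-type by 0.24 (SE 0.20, exact permutation p = 0.3) in Nrf2-null, 1.35 (SE 0.14, exact permutation p = 0.1) in Keap1-KD and 6.07 (SE 0.23, exact permutation p = 0.1) in Keap1-HKO mice. With values under 100 set to 100 the shift was 0.010 (SE 0.12, exact permutation p = 1) in Keap1-KD mice and 4.68 (SE 0.23, exact permutation p = 0.1) in Keap1-HKO mice, so that Keap1-HKO mice had a ratio of Abcc4 to Abcc2 intensity at least 25.6-fold above that of Wild-type mice. The exact permutation p of the F statistic over the 4 genotypes was 0.000195 (0.00156 adjusted over the 8 tests), and 0.00162 with values under 100 set to 100. Abcc4 was in the table only through the Keap1 models, so the filter favoured an upward shift there. Nothing beyond the values is read from these tests.

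**Figure D3:**
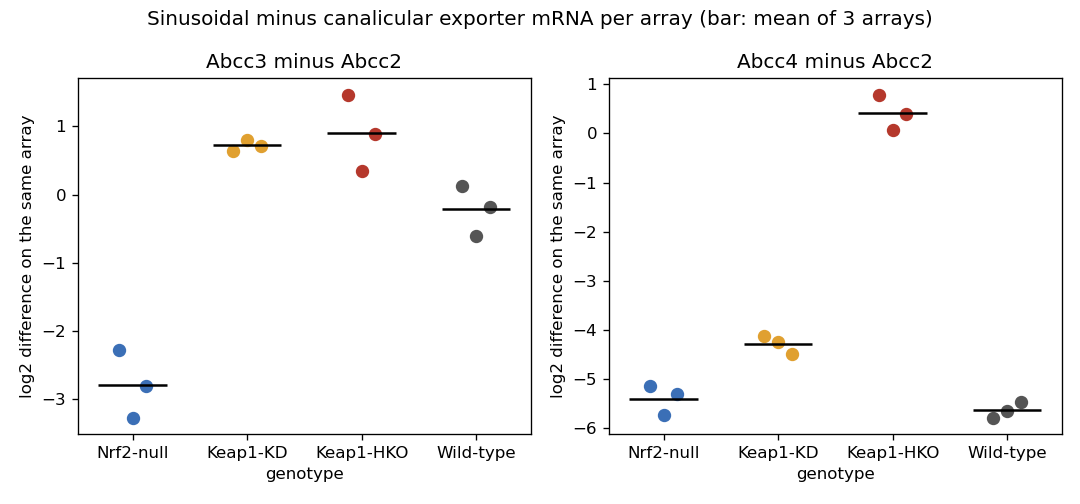
Log2 value of Abcc3 (left) or Abcc4 (right) minus that of Abcc2 on the same array, by genotype, with bars at the mean of 3 arrays. Only the movement between genotypes can be read, since the zero of each axis depends on the probe sets. Abcc3 minus Abcc2 shifts by -2.58 in Nrf2-null mice, and Abcc4 minus Abcc2 by 6.07 in Keap1-HKO mice, or by 4.68 with values under 100 set to 100.

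Among the genes tested, the 3 whose log2 values followed each Mrp gene most closely over the 12 arrays were Gbe1, Fmo1 and Txnrd1 for Abcc2 (r = 0.973, 0.961 and 0.954), Ces1g, Pir and Gstm1 for Abcc3 (0.987, 0.985 and 0.980), Cbr3, Cbr1 and Gpx2 for Abcc4 (0.998, 0.990 and 0.982) and Slc1a1, Osbpl3 and Gpx2 for Abcc12 (0.995, 0.994 and 0.993). Cbr1 and Cbr3 encode carbonyl reductases, Gpx2 a glutathione peroxidase, Gstm1 a glutathione S-transferase and Txnrd1 thioredoxin reductase. For Abcc6 they were Pknox1, Aspscr1 and Slc46a1 (0.952, 0.946 and 0.939). Over the 10 arrays left without those 2 divergent ones (replicate 1 of Keap1-HKO and of Nrf2-null mice) the Abcc6 values were 0.739, 0.907 and 0.677, while those of the other 4 genes were at least 0.951. Within the group Abcc4 and Abcc12 had r = 0.973, Abcc2 and Abcc4 0.904, Abcc3 and Abcc4 0.703, and Abcc6 between -0.16 and 0.03 with the other 4. The points share genotypes and arrays, so these are descriptions of the 12 arrays. Abcc12 was in the table only through its Keap1-HKO level. That filter favoured its correlation with genes high in those mice, Abcc4 among them, and nothing is read from it.

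Abcc9, the only other measured Abcc gene, encodes a regulatory subunit of potassium channels rather than an exporter. It averaged 195 ± 134 in Keap1-HKO mice and 391 ± 91.8 in Wild-type mice (limma adjusted p = 0.256). It read 46.5 on Keap1-HKO replicate 1, against 308 and 231 on the other arrays of that genotype. With replicate 1 alone for its genotype the log2 fold change was -3.05, a value without spread within the genotype.

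Other exporters and the conjugation enzymes that supply Mrp substrates were counted from written lists. Of 8 other canalicular exporter genes, 3 rose and 0 fell in Keap1-HKO mice, where 2.1% of all genes were called higher and 1.84% lower. Abcg5 and Abcg8, which form the biliary sterol pump, had log2 fold changes of 1.98 (limma adjusted p = 0.000444) and 1.74 (0.00481), and Abcg2, the breast cancer resistance protein, had 0.71 (0.00972). None of 3 other sinusoidal exporter genes (unadjusted p under 0.05 for 1) and none of 6 canalicular scaffold and trafficking genes (0 by the unadjusted p) was called in that comparison. The share of all genes by the unadjusted p was not counted there.

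Of 5 glutathione synthesis and recycling genes 3 rose in Keap1-HKO mice, among them Gclc, the catalytic subunit of the rate-limiting enzyme, with a log2 fold change of 1.54 (limma adjusted p = 0.000776), Gsr, glutathione reductase, with 1.11 (0.00245), and Gss, glutathione synthetase, with 0.94 (0.0074). Of 19 glutathione S-transferase genes 7 rose in Keap1-HKO mice, led by Gstm4 (3.25, adjusted p = 0.000286) and Gstm3 (4.15, 0.000442), mu-class genes so alike in sequence that a probe set may read more than its own gene. In Nrf2-null mice 3 of the 19 fell. Of 13 glucuronidation genes 3 rose in Keap1-HKO mice, among them Ugdh, which makes UDP-glucuronic acid (1.60, adjusted p = 0.00642), Slc35d1, which carries it into the endoplasmic reticulum (1.18, 0.00526), and Ugt2b35 (0.87, 0.0481), and 3 of the 13 fell in Nrf2-null mice. Of all genes, 2.1% were called higher in Keap1-HKO mice and 0.359% lower in Nrf2-null mice. The median log2 fold change in Keap1-HKO mice was 0.94, 0.91 and 0.21 for these lists in turn, against -0.01 over all genes. Abcg2, Gss and Ugt2b35 were named after their values were seen. Of 10 regulators of Mrp transcription 2 fell in Keap1-HKO mice, where 1.84% of all genes were called lower. They were Keap1 itself and Nfe2l2, whose call (limma adjusted p = 0.048) was lost in 16 of 29 alternatives.

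**Figure D4:**
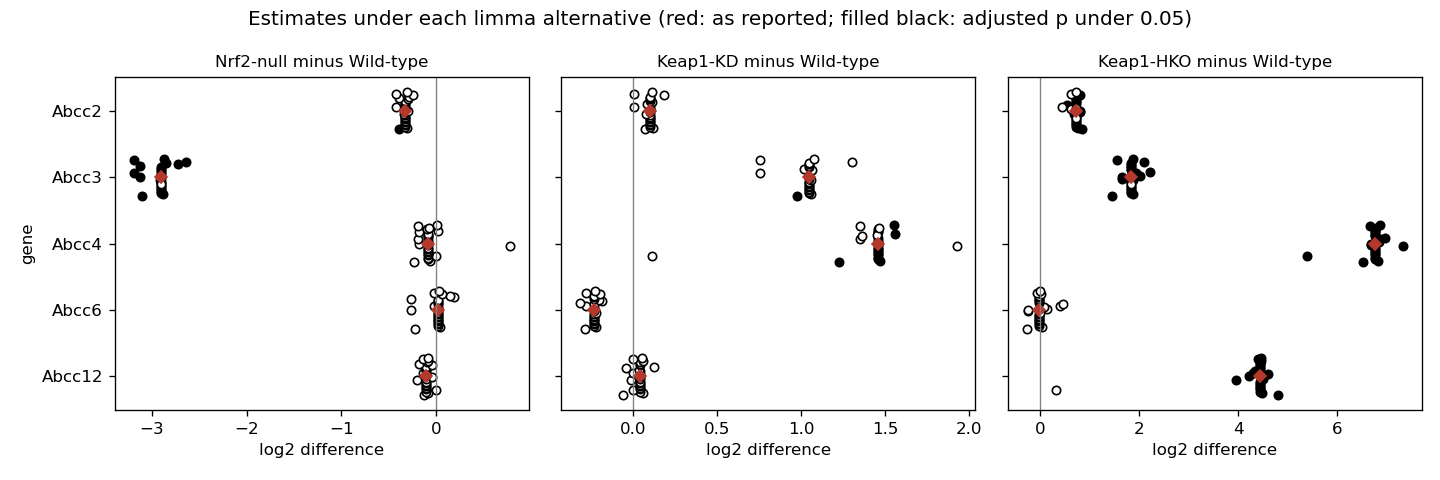
log2 differences of the 5 Mrp genes under each limma alternative, with 1 panel for each genotype against Wild-type mice. Red diamonds are the values reported, filled black points have an adjusted p under 0.05, open points do not. Estimates for Abcc4 in Keap1-HKO mice lie between 5.39 and 7.34, and the single open point for Abcc12 there is 0.32.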

How the data were processed

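The authors made the deposited log2 values with gcRMA (affy package in R), a background correction, quantile normalization and probe set summary in 1, and retained what exceeded an intensity of 100 in any group. The deposited table held 9622 probe sets on 12 arrays, with values of 2.29 to 16.8. Probe sets with 1 gene symbol numbered 8554. Those with several (371) or none (697) were left out. The probe set of highest mean was kept for each gene, which gave 5856 genes.

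The test was limma 3.58.1 (R 4.3.3) over all 12 arrays, with genotype as the only factor and 8 residual degrees of freedom. Benjamini-Hochberg adjustment ran over all genes, with calls under 0.05. Percent changes compare mean un-logged intensities and carry the SEM of the genotype named, leaving out that of the control. Where a group mean lay under 100, folds are bounds against 100. limma and Duncan's test were tested on simulated data. The number of arrays limits the precision.

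The 5 genes and all gene lists were chosen with earlier results of these data known. Named genes were the 5, the targeted genes and Nqo1, other Abcc genes, the 2 called genes of lowest p in each list, and the 3 genes most like each member. Alternatives were other filters, floors, normalizations, probe set choices and limma settings, Duncan's test, single arrays left out, pairs or trios of arrays left out, and a replicate block. Deviations from the genotype mean were correlated between arrays of the same replicate number. For Keap1-HKO with Keap1-KD arrays r was 0.215, 0.165 and 0.105, though Keap1-HKO replicate 3 matched Keap1-KD replicate 2 best. For Nrf2-null with Wild-type arrays r was 0.164, 0.215 and 0.072, each best with its own number. The labels name no shared litter or day. Promoter sequence is from RefSeq on GRCm38.p6.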

Additional observations from a re-analysis of the deposited data

How the results depend on the processing

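Counts here take in Abcc12, whose place in the table hangs on its Keap1-HKO level. That filter favours its calls in comparisons with Keap1-HKO mice, so nothing is read from their part in these counts. Without it the reported counts were 3 in Keap1-HKO mice, 1 between the Keap1 models and 1 for induction minus basal dependence. Of the values compared with an alternative, the calls for Abcc4 in Keap1-HKO mice held throughout. The count of Mrp genes called in Nrf2-null mice was 2 with array quality weights or Duncan's test on log2 values, and 0 with only the groups compared or Duncan's test on un-logged values, against 1. In Keap1-KD mice it was 0 with a floor at 100, after a second quantile normalization and without Keap1-HKO replicates 2 and 3 and Wild-type replicate 2 together, 2 with array quality weights or Duncan's test on log2 values, and 0 to 1 with single arrays left out. In Keap1-HKO mice it was 2 with only the groups compared, 3 with a filter at 200, a floor at 100 and without the 3 arrays that carried other tissues, and 3 to 4 with single arrays left out, against 4. Between Keap1-HKO and Keap1-KD mice it was 1 with a filter at 200 or a floor at 100, 4 with Duncan's test on either scale, against 2. Abcc2 was called there as well with array quality weights (limma adjusted p = 0.0338) and without Keap1-HKO replicate 1 (0.0326). The same held without replicate 1 of both Keap1-HKO and Nrf2-null mice (0.0157). For induction minus basal dependence it was 1 with a filter at 200, a floor at 100 or a limma intensity trend, against 2. The cause was not tested, except that the filter at 200 drops Abcc12 and the floor raises background values to the limit. The share of all genes called was not set beside the count for any alternative. A count that moved is therefore not read as particular to the Mrp genes.

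Sign changes were confined to estimates that were not called. Abcc4 in Nrf2-null mice was 0.78 after a second quantile normalization and -0.19 to 0.023 with single arrays left out. Abcc12 in Keap1-KD mice was -0.0095 after that normalization, -0.059 with array quality weights and -0.042 to 0.13 with single arrays left out. Abcc6 in Nrf2-null mice was -0.23 with array quality weights, -0.26 without replicate 1 of both Keap1-HKO and Nrf2-null mice, -0.017 without Keap1-HKO replicates 2 and 3 and Wild-type replicate 2, and -0.26 to 0.19 with single arrays left out. In Keap1-HKO mice Abcc6 was 0.023 centred on the array median, 0.45 without Keap1-HKO replicates 2 and 3, 0.41 also without Wild-type replicate 2, 0.019 with Duncan's test on un-logged values, and -0.26 to 0.13 with single arrays left out. Between Keap1-HKO and Keap1-KD mice Abcc6 was -0.022 without those same arrays numbered 1, and -0.022 to 0.36 with single arrays left out. Its trend was 1.04 without Keap1-HKO replicates 2 and 3, 0.996 also without Wild-type replicate 2, and -1.08 to 0.48 with single arrays left out. Its induction minus basal dependence was -0.50 with array quality weights, -0.52 without the same arrays numbered 1, and -0.28 to 0.17 with single arrays left out.

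With the replicate number as a block the counts were 1 in Nrf2-null mice, 1 in Keap1-KD mice, 4 in Keap1-HKO mice and 2 between the Keap1 models, and the block changed no call of the 5 genes. Outside the Keap1-HKO and Keap1-KD pairs, the correlation of same-numbered arrays ran from -0.157 to 0.394, and each Nrf2-null array correlated best with the Wild-type array of its own number, a hint from the data and not the design. The exporter differences kept their direction under the second normalization and each array left out, but under the floor the Abcc4 minus Abcc2 shift in Keap1-KD mice was 0.010, against 1.35. Signal over background limits Abcc4 in Nrf2-null and Wild-type mice and Abcc12 outside Keap1-HKO mice.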
